A study of Mus musculus with 40 samples.

Results

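The 5 genes described here encode the creatine kinases of heart muscle, the carrier that brings creatine into the cell, and myoglobin. All 5 of the genes sought by name, Ckm, Ckmt2, Ckb, Slc6a8 and Mb, were rows of the deposited table of 11450 genes. The rule that chose them names genes and uses no measured value. The samples were taken from adult mice of the inbred strain C57BL/6 in which the left anterior descending coronary artery had been tied off for good. Cardiac muscle was sampled 3, 7, 14, 21 or 42 days later, from 4 mice a day. Each of these 20 mice gave a pair of total RNA libraries, one from the injured region, which forms the scar, and one from uninjured muscle remote from it, 40 libraries in all. The uninjured libraries thus also come from ligated hearts, and hearts without ligation were not analysed here. The days are different animals, even where a label such as A4 recurs. Labels start with B for the day 42 mice alone and with A for all others, so that day and that set of mice cannot be told apart.

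Creatine kinases move phosphate between ATP and creatine, and heart muscle is known for its large stock of them. The cytosolic muscle form, encoded by Ckm, sits at the M line of the sarcomere and beside the ion pumps, where it refills ATP from phosphocreatine. The sarcomeric mitochondrial form, encoded by Ckmt2, lies between the mitochondrial membranes and makes phosphocreatine from newly formed ATP. The brain form, encoded by Ckb, is the cytosolic form of many cells outside striated muscle and of the embryonic heart. Slc6a8 encodes the plasma membrane creatine transporter, on which the heart depends because it makes little creatine itself. Mb encodes myoglobin, the oxygen-binding haem protein of heart and oxidative skeletal muscle, which also reacts with nitric oxide.

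Positions are those of the mm10 build in the GENCODE M21 annotation. Ckm lies at chr7:19404776-19422841 on the plus strand, Ckmt2 at chr13:91853387-91876885 on the minus strand, Ckb at chr12:111669361-111672338 on the minus strand, Slc6a8 at chrX:73673150-73682502 on the plus strand and Mb at chr15:77015487-77050670 on the minus strand. Antisense genes overlap Ckm (A930016O22Rik), Ckmt2 (1700119I11Rik) and Mb (Gm49540), the last of which also overlaps the protein-coding Apol6 on the opposite strand. Whether counting used the strand is not given in the sources used here, so reads from these partners cannot be told apart. For Ckb the annotation lists 2 pseudogenes, Ckb-ps1 and Ckb-ps2, with which it may share reads. The 250 bases before the start site are shown for the creatine kinase genes and for Mb because 3 of these 4 genes were low in the scar together while the fourth was not. They are RefSeq promoters of the GRCm38.p6 assembly, written 5′ to 3′ along the gene's own strand. Capitals mark every match to CANNTG (an E-box, bound by basic helix-loop-helix factors), to the MEF2-type motif (CTA and TAG with any 4 bases between them), to TATANA or to CCAAT, searched on both strands, and matches can overlap.
Ckm, chr7:19410844-19411093: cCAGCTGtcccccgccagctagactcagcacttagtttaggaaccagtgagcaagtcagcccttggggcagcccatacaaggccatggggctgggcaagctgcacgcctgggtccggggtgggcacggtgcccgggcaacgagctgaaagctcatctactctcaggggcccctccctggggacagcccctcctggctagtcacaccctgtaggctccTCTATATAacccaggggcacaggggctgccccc
Ckmt2, chr13:91876886-91877135: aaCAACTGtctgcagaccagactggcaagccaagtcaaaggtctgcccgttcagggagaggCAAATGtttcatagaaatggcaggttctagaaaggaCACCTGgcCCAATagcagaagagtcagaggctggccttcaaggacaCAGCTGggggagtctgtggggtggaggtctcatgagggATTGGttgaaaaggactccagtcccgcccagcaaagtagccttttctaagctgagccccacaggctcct
Mb, chr15:77022788-77023037: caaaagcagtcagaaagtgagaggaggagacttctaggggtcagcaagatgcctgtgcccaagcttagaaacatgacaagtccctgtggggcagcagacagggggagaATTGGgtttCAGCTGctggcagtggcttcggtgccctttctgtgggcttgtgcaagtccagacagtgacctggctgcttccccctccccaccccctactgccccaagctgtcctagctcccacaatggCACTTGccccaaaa
Ckb, chr12:111672339-111672588: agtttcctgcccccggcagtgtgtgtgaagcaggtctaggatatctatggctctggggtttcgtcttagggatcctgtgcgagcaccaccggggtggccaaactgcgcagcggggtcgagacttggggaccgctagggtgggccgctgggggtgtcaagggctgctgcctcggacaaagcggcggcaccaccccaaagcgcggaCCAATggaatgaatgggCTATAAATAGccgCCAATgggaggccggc
The E-box variant CAGCTG stood at -249 from the start of Ckm, at -107 from that of Ckmt2 and at -133 from the Mb start shown, and no CANNTG was in the Ckb window. Over the 32851 mouse promoters of the same length, 66.2% held a CANNTG and 13% held a CAGCTG. Ckb had the only MEF2-type match among the 4 windows shown, at -29, where it overlaps a TATANA match at -28, and 3.2% of all promoters held one. It also had CCAAT at -46 and -16, a motif found in 33.8% of all promoters. Ckm had TATANA matches at -33 and -31, as did 22.6% of all promoters somewhere in the window. RefSeq gives Mb another 2 starts, of which one window overlaps the one shown and holds the same CAGCTG, and the other holds 2 CANNTG and no CAGCTG. Whether the Mb window holds a CAGCTG thus depends on the start shown. A match is a description of the letters and not a bound site.

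The deposited values are RPKM, read numbers corrected for gene length and sequencing depth. The whole reads behind them summed to between 11559155 and 26114582 per library. The RNA of cell type markers differed between the regions: the summed level of 9 cardiomyocyte markers, all of them in the table, was 1297 to 5877 RPKM in the injured and 16986 to 26414 RPKM in the uninjured libraries. The scar thus still held cardiomyocyte RNA on every day. The 5 fibroblast markers summed to 791 to 2671 against 369 to 588 RPKM, the 5 macrophage markers to 227 to 599 against 95.0 to 141 RPKM, and the 4 smooth muscle markers to 214 to 829 against 69.9 to 149.7 RPKM. Not every marker followed its sum. By the test described below, the fibroblast marker Dcn (log2 difference -1.17) and the smooth muscle marker Myh11 (-0.96) were lower in the scar on day 3. The remaining 4 fibroblast and 3 smooth muscle markers were higher that day, where 44.1% of all genes were called higher and 39.6% lower. The 4 endothelial markers summed to 158 to 192 against 133 to 147 RPKM on day 3, higher in the scar. Singly, 2 of them were called higher that day, 1 (Kdr) was called lower and 1 (Tie1) was not called. Kdr was lower in the scar in 20 of 20 mice over the 5 days. On days 7 to 42 the 4 endothelial markers summed to 58.7 to 91.7 against 118 to 179 RPKM, lower in the scar without overlap. The 4 red blood cell markers summed to 13.1 to 132 against 99.6 to 358 RPKM, and 4 of 4 were lower in the scar on days 7 to 42, as were Ckm, Ckmt2 and Mb. Of all genes tested, 38.7% to 41% were called lower on those days. Of 7 skeletal muscle markers 1 was in the table, Tnnt3, at 1.34 to 6.42 against 0.223 to 0.793 RPKM, of 4 Schwann cell and neuronal markers also 1, S100b, and of 4 adipocyte markers 0. In bulk tissue, fewer cells of a type and less RNA per cell cannot be told apart, and the part of either in the results was not tested.

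Regional differences were tested with limma on log2(RPKM + 1) within each mouse, and called at an adjusted p under 0.05. Of the 5 genes, 0 were called higher and 4 lower in the scar on day 3, and 1 higher and 4 lower on each later day. Calls were common among the 11390 genes tested. On day 3 83.7% of them were called, 44.1% as higher and 39.6% as lower in the scar. The share was 82.2% on day 7 (43.6% higher and 38.7% lower), 82.9% on day 14 (42.4% and 40.5%), 84% on day 21 (43.1% and 41%) and 79.2% on day 42 (40.5% and 38.7%). That 4 of 5 genes were called lower therefore says less than the size of their differences.

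Ckm, the muscle creatine kinase, was lower in the scar in 20 of 20 mice. In the uninjured region it stood at 644, 791, 623 and 787 RPKM on day 3, at 459, 604, 538 and 436 on day 7, and at 708, 806, 879.6 and 775 on day 14. The uninjured values were 971, 883, 668 and 695 RPKM on day 21 and 832, 733, 661 and 659.8 on day 42. Day 7 was the lowest of the 5 days, and its 4 values did not overlap those of day 3 or day 14. In the scar of the same mice Ckm was at 13.8, 22.3, 12.6 and 30.8 RPKM on day 3, at 7.54, 8.34, 3.40 and 7.29 on day 7, and at 13.9, 26.6, 49.01 and 35.9 on day 14. It was at 16.9, 11.3, 33.5 and 27.1 RPKM on day 21 and at 35.6, 45.6, 20.3 and 13.2 on day 42. No injured value came near an uninjured one on any day, and day 7 was again the lowest, apart from all other days.

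The log2 difference of Ckm, injured minus uninjured on the scale of log2(RPKM + 1), was -5.17 on day 3, -6.11 on day 7, -4.74 on day 14, -5.21 on day 21 and -4.75 on day 42, each ± 0.30 (SE, n = 4 mice a day, limma adjusted p at most 1.57e-11). In mean RPKM the uninjured region was 35.8-fold higher on day 3, 76.7-fold on day 7 and 25.2-fold on day 42. Among all genes tested this was at the low end of the range as deposited. On day 7, 0 of the other genes had a lower difference, on days 14 and 42 only 1 did, and on days 3 and 21, 2 did. The difference was not the same on all days (limma interaction F, adjusted p = 0.0357, a call made for 74.3% of genes). That call rested on single mice: it was lost without day 7 mice A9 (adjusted p = 0.0663) or A10 (0.145), without day 14 mice A6 (0.0524) or A11 (0.0571), without day 42 mice B1 (0.0576) or B3 (0.0518), and in a fit with no term for the mouse (0.0530).

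**Figure D1:**
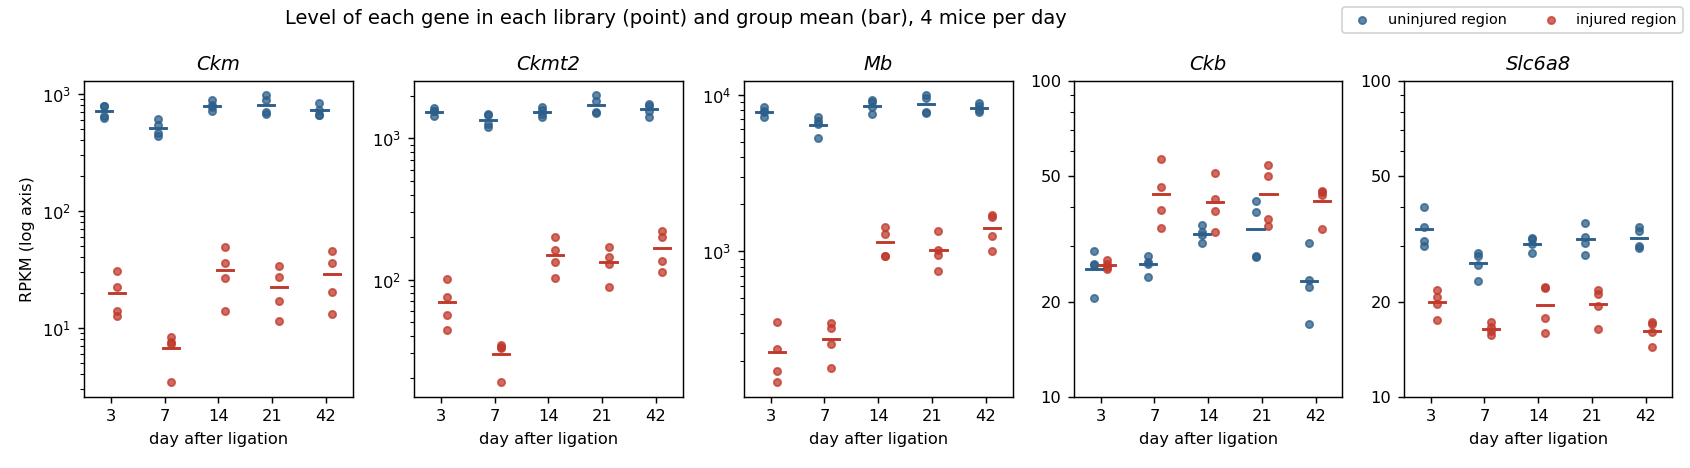
RPKM of each of the 5 genes (log axis, its range set per gene) in the uninjured and injured libraries of 4 mice on each day, with bars at the group means. Ckm, Ckmt2 and Mb lie apart by region on every day, with injured Ckm and Ckmt2 lowest on day 7, while Ckb overlaps on days 3, 14 and 21 and Slc6a8 differs by less than 2-fold in the means.

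Ckmt2, the mitochondrial partner that feeds the phosphocreatine pool, was also lower in the scar in 20 of 20 mice. The uninjured values were 1557, 1632, 1429.7 and 1572 RPKM on day 3, 1273, 1474, 1478 and 1193 on day 7, and 1417, 1653, 1592 and 1494 on day 14. They were 2014, 1841, 1509 and 1545 RPKM on day 21 and 1736, 1701, 1554 and 1421 on day 42. Neighbouring days overlapped throughout in this region. In the scar Ckmt2 was at 55.8, 75.1, 43.9 and 101 RPKM on day 3, at 33.1, 32.9, 18.7 and 34.2 on day 7, and at 102, 132, 202 and 161 on day 14. It was at 145, 89.2, 128 and 169.7 RPKM on day 21 and at 199.6, 219.9, 135 and 113 on day 42. Day 7 was lowest without overlap with any other day, and the 3 later days overlapped each other.

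The log2 difference of Ckmt2 was -4.54 on day 3, -5.50 on day 7, -3.40 on day 14, -3.72 on day 21 and -3.30 on day 42, each ± 0.20 (SE; limma adjusted p at most 4.00e-12). The uninjured mean was 22.4-fold higher on day 3, 45.6-fold on day 7 and 9.61-fold on day 42. Between 3 and 31 of the genes tested had a lower difference, depending on the day. The difference changed over the days (limma interaction F, adjusted p = 3.79e-06).

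Mb, the oxygen store of the myocyte, was the most abundant of the 5 and ranked 5th to 8th of all genes by RPKM in the uninjured libraries. Its uninjured values were 7716, 7821, 7167 and 8342 RPKM on day 3, 6468, 7235, 6797 and 5284 on day 7, and 8336, 9014, 9230.1 and 7515 on day 14. On day 21 they were 9896, 9549, 7601 and 7731 RPKM and on day 42 8793, 7729.5, 8009.6 and 8504. Neighbouring days in the order of means overlapped, but every day 7 value lay below every value of days 14, 21 and 42. In the scar Mb was at 173, 239, 146 and 355 RPKM on day 3, at 351, 324, 179 and 257 on day 7, and at 938, 934, 1437 and 1289 on day 14. It was at 952, 751, 1025 and 1349 RPKM on day 21 and at 1649, 1704, 1251 and 999 on day 42. Injured Mb therefore fell into a low pair of days, 3 and 7, and a high set, days 14 to 42, with no overlap between them, and still ranked 12th to 120th among all genes there.

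Mb was lower in the scar in 20 of 20 mice, with a log2 difference of -5.17 on day 3, -4.57 on day 7, -2.91 on day 14, -3.11 on day 21 and -2.59 on day 42, each ± 0.22 (SE; limma adjusted p at most 5.91e-10). The uninjured mean was 34.0-fold higher on day 3 and 5.90-fold higher on day 42. On day 3 only 3 genes had a lower difference, and on day 42, 123 did. The change over the days passed the test (limma interaction F, adjusted p = 6.81e-07).

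Ckb, the brain form, went the other way. On day 3 it was at 26.3, 25.4, 25.7 and 27.1 RPKM in the scar and at 20.6, 26.2, 29.0 and 26.1 in the uninjured region. The 4 scar values lay within the uninjured range. On day 7 the scar was at 34.2, 39.00, 56.6 and 46.3 RPKM and the uninjured region at 23.9, 26.8, 26.3 and 28.0, with every scar value above every uninjured one. On day 14 the scar was at 42.2, 33.2, 38.9 and 51.1 against 30.8, 32.5, 33.2 and 34.9 RPKM, and on day 21 at 34.7, 36.5, 50.2 and 54.3 against 27.6, 27.9, 41.6 and 38.5 RPKM. The ranges overlapped on both of these days, although each mouse had more Ckb in its scar than in its own uninjured region. On day 42 the scar was at 33.9, 44.8, 43.6 and 44.6 RPKM and the uninjured region at 23.5, 22.2, 17.0 and 30.7, again without overlap.

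In log2 terms Ckb differed by 0.04 on day 3 (limma adjusted p = 0.731), 0.70 on day 7 (adjusted p = 1.42e-05), 0.31 on day 14 (0.0215), 0.36 on day 21 (0.00825) and 0.83 on day 42 (1.69e-06), each ± 0.12 (SE). It was higher in the scar in 18 of 20 mice, the other 2 being of day 3. The day 14 call was lost without mouse A4 (adjusted p = 0.0878) or A11 (0.124) and in a fit with no term for the mouse (0.0725). The change over the days passed the test (limma interaction F, adjusted p = 0.00199). Per length, Ckb was far below Ckm in the uninjured region and above it in most scars: the geometric mean ratio of Ckb to Ckm was 0.0357 in the uninjured region and 1.40 in the scar on day 3, and 0.0519 and 6.88 on day 7.

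Slc6a8, the creatine transporter, was lower in the scar in 20 of 20 mice, by much less than the muscle kinases. On day 3 it was at 21.7, 19.7, 17.5 and 20.7 RPKM in the scar and at 39.8, 31.2, 30.0 and 34.5 in the uninjured region. On day 7 it was at 15.6, 16.2, 17.2 and 16.6 against 27.9, 28.6, 23.3 and 26.2 RPKM, and on day 14 at 17.8, 15.9, 22.3 and 22.2 against 31.5, 28.5, 30.4 and 31.8 RPKM. No scar value reached the lowest uninjured value of its day. On day 21 it was at 21.7, 16.4, 19.4 and 21.2 against 32.1, 30.6, 28.2 and 35.5 RPKM, and on day 42 at 17.2, 17.1, 14.4 and 16.05 against 33.6, 30.1, 29.6 and 34.5 RPKM. The regions were again apart. The log2 difference was -0.73, -0.66, -0.63, -0.66 and -0.94 on the 5 days in order, each ± 0.08 (SE; limma adjusted p at most 1.81e-07). A change of this difference over the days was not called as deposited (limma interaction F, adjusted p = 0.0821), but was under quantile normalization (0.0101) and without day 21 mouse A4 (0.0498).

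Scaling between libraries moved these values. The recovered reads, divided by the total that the RPKM values themselves imply for that library, had a median of 0.988 in injured and 1.40 in uninjured libraries, relative to the scar of day 3 mouse A4. Scaled to the recovered reads instead, the median log2 difference of all genes rose from between 0.03 and 0.06 to between 0.35 and 0.51, and calls higher in the scar rose from 51.1% to 53.0% of calls to 68.1% to 75.2%. On this scale Ckb was higher on day 3 as well (log2 difference 0.60 ± 0.12, limma adjusted p = 9.96e-05), as it was under quantile normalization (0.44, adjusted p = 0.00126). Slc6a8 lost its call on day 14 (-0.15, adjusted p = 0.0766) and day 21 (-0.14, adjusted p = 0.105), and on day 21 also under quantile normalization (-0.16, adjusted p = 0.0701). Quantile normalization brought Mb to -3.86 on day 3 and -1.55 on day 42, Ckmt2 to -3.46 and -2.05, and Ckm to -4.50 and -4.03, all still called.

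**Figure D2:**
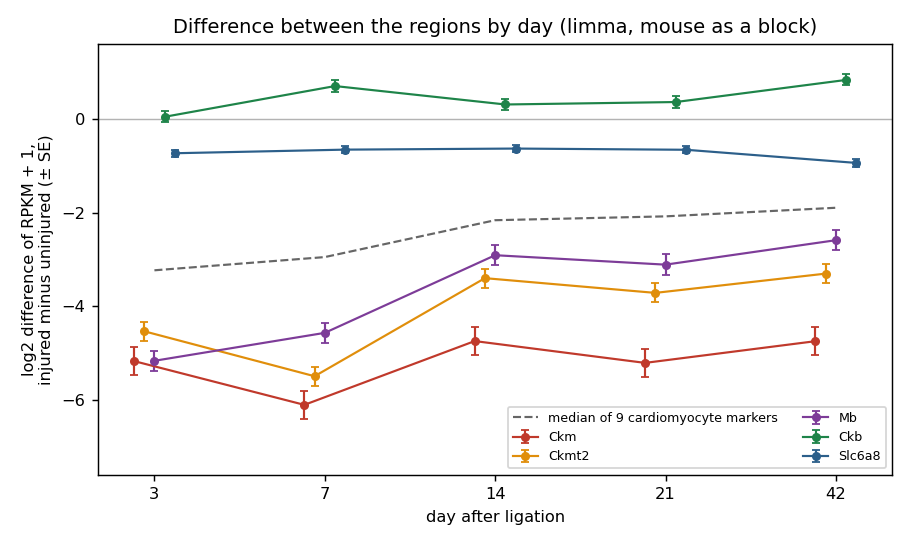
Log2 difference of RPKM + 1, injured minus uninjured, of each gene on each day (points, limma estimates with the mouse as a block, bars ± SE) and the median difference of the 9 cardiomyocyte markers (dashed). Ckm, Ckmt2 and Mb lie below the marker median on all 5 days, Mb moves from -5.17 to -2.59, and Ckb lies at or above 0.

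Within the scar, from day 3 to day 7, Ckm fell by 1.42 ± 0.44 (SE; limma adjusted p = 0.00947) and Ckmt2 fell by 1.16 ± 0.28 (adjusted p = 0.00166) on the log2 scale, while Ckb rose by 0.71 ± 0.16 (adjusted p = 0.000828). Mb, the other abundant muscle gene, differed by 0.32 ± 0.27 (limma adjusted p = 0.319) over the same step. Slc6a8 fell by 0.26 ± 0.10 (limma adjusted p = 0.0350), a call lost without day 3 mice A4 (0.0995), A5 (0.0587) or A8 (0.0780) or day 7 mice A7 (0.0807), A9 (0.0669) or A12 (0.0524), under quantile normalization (0.0843) and when scaled to the same median (0.0689). These were 4 of the 5 genes, 1 higher and 3 lower, where 60.4% of all genes tested were called, 27.7% as higher and 32.7% as lower. From day 7 to day 14 Ckm rose by 2.01 ± 0.44 (limma adjusted p = 0.00132), Ckmt2 by 2.28 ± 0.28 (8.10e-06) and Mb by 2.07 ± 0.27 (1.35e-05), 3 of 5 genes, where 43.1% of all genes were called, 21.9% as higher and 21.2% as lower. Ckb (-0.08 ± 0.16, adjusted p = 0.714) and Slc6a8 (0.23 ± 0.10, adjusted p = 0.0853) did not pass the limma test over that step, although Slc6a8 did without day 14 mouse A5 (0.31, adjusted p = 0.0197). The summed cardiomyocyte markers of the scar were at 1297 to 2067 RPKM on day 7 and at 3490 to 5650 on day 14, moving with these genes, and their part in the rise was not tested.

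After day 14 none of the 5 genes passed the limma test in the scar. From day 14 to day 21 the count was 0 of 5 at an unadjusted p under 0.05 as well, and limma called 0% of all genes, with 1496 at an unadjusted p under 0.05; limma-voom on the recovered reads also called 0 genes, and limma called 25 without day 14 mouse A5. From day 21 to day 42, 24.8% of all genes were called, 11.2% as higher and 13.6% as lower, and 1 of the 5, Slc6a8, was at an unadjusted p under 0.05 (log2 change -0.26 ± 0.10, limma adjusted p = 0.0683). Over all 5 days together each of the 5 genes changed in the scar (limma F, adjusted p between 2.72e-08 for Mb and 0.0263 for Slc6a8), as did 87.6% of all genes. For Slc6a8 this call was lost without day 42 mouse B9 (adjusted p = 0.0616) and when scaled to the same median (0.0509).

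The uninjured region was not constant either. Ckm fell by 0.48 ± 0.13 (SE) from day 3 to day 7 (limma adjusted p = 0.0134) and rose by 0.64 ± 0.13 from day 7 to day 14 (0.00438), and Slc6a8 fell by 0.34 ± 0.09 in the first of these steps (0.0111). These are 2 of 5 genes from day 3 to day 7, where 25% of all genes were called, 10.4% as higher and 14.5% as lower. The Slc6a8 call was lost when scaled to the recovered reads (-0.16, limma adjusted p = 0.211). The first Ckm call was lost under quantile normalization (-0.22, adjusted p = 0.0902), without day 3 mouse A8 (0.0512) or day 7 mouse A7 (0.0509), and in a joint fit of both regions in which mice were random effects (0.287). That last fit also ended the second Ckm call (limma adjusted p = 0.190). Mb rose by 0.41 ± 0.12 from day 7 to day 14 (limma adjusted p = 0.0309), a call lost without any of day 7 mice A7 (0.0772) and A12 (0.116) and day 14 mice A5 (0.0935) and A6 (0.107), lost also when scaled to the same median (0.0541) or in the joint fit (0.222), and turned to -0.10 under quantile normalization. In that step 2 of the 5 genes and 13% of all genes were called, 7.49% as higher and 5.56% as lower. From day 14 to day 21 limma called 0 of the 5 genes, also at an unadjusted p under 0.05 and by limma-voom, and 0.00878% of all genes. Ckb fell by 0.53 ± 0.15 from day 21 to day 42 (limma adjusted p = 0.0154), where 20.5% of all genes were called, 10.4% as higher and 10.1% as lower. That call was lost under quantile normalization (-0.37, limma adjusted p = 0.0807) and without day 21 mice A10 (0.0596) or A11 (0.0528) or day 42 mouse B9 (0.0709). Over all days 4 of the 5 genes were called in the uninjured region, all but Ckmt2 (limma F, adjusted p = 0.101), against 47.2% of all genes. Without day 7 mouse A7 or A12 it was 2 of 5. Ckmt2 was called too with detection of Xist, found in 10 of the 20 mice, as a covariate (limma F, adjusted p = 0.0453).

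Ratios of genes within a library are untouched by any factor common to that library. Day 3 was the one day on which Ckm and Mb differed between the regions by nearly the same factor: the log2 ratio of Mb to Ckm was 3.53 ± 0.09 in the scar and 3.45 ± 0.12 in the uninjured region (SD, n = 4), a difference of 0.08 ± 0.05. From day 7 on the scar held more Mb per Ckm. The difference was 1.75 ± 0.22 on day 7, 1.89 ± 0.45 on day 14, 2.17 ± 0.53 on day 21 and 2.22 ± 0.31 on day 42. As a plain ratio, Mb was 11.6 times Ckm in the scar on day 3 and 53.3 times on day 42, against 10.96 and 11.5 times in the uninjured region. Averaged over the 20 mice the difference was 1.62 ± 0.87 (SD) and was positive in 20 of 20 (two-sided sign-flip permutation test, 100000 resamples, p = 1e-05, the smallest that number allows; adjusted p = 1e-05 over the 4 ratios tested).

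The ratio of Ckmt2 to Ckm was likewise higher in the scar in 20 of 20 mice, by 1.18 ± 0.49 (SD) on the log2 scale (permutation p = 1e-05, adjusted p = 1e-05). Its difference was 0.69 ± 0.06 on day 3, 0.78 ± 0.15 on day 7, 1.39 ± 0.32 on day 14, 1.56 ± 0.58 on day 21 and 1.49 ± 0.38 on day 42. The Ckb to Ckm ratio was higher by 5.76 ± 0.98 and the Slc6a8 to Ckm ratio by 4.54 ± 0.86, in 20 of 20 mice each (permutation p = 1e-05, adjusted p = 1e-05). Between day 3 and each later day, these regional differences were compared by exact two-sided permutation tests of 4 against 4 mice, whose smallest possible p is 0.0286. Mb to Ckm reached it on all 4 later days, Ckmt2 to Ckm on days 14, 21 and 42, and Ckb to Ckm and Slc6a8 to Ckm on day 7. Adjusted over the 16 comparisons that value is 0.0508, so none passed 0.05.

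**Figure D3:**
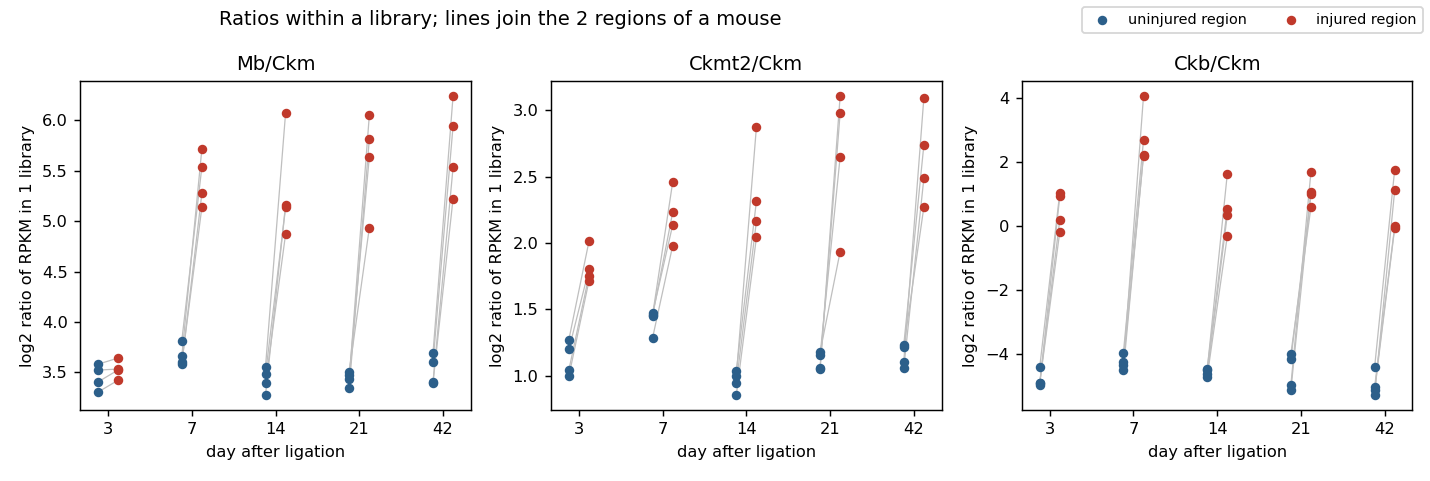
Log2 ratios of RPKM within a library for Mb, Ckmt2 and Ckb over Ckm on each day, with a line joining the 2 regions of a mouse. The Mb to Ckm lines are nearly flat on day 3 (mean difference 0.08) and steep on the later days, and all 20 lines rise toward the scar in each panel.

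Among the creatine kinase transcripts, the sum of Ckm, Ckmt2 and Ckb in RPKM, the muscle form lost share in every scar. Ckm made up 31.1 ± 1.90%, 26.9 ± 1.22%, 33.5 ± 1.21%, 31.2 ± 1.09% and 30.7 ± 1.19% (SD, n = 4) of the sum in the uninjured region on the 5 days in order. In the scar it made up 16.8 ± 2.33%, 8.27 ± 2.79%, 13.5 ± 3.41%, 10.9 ± 3.49% and 11.5 ± 3.11%. The mean difference over 20 mice was -18.5 ± 3.51 percentage points, lower in 20 of 20 (sign-flip permutation p = 1e-05, adjusted p = 1.5e-05 over 3 shares). Ckb rose from between 1.01 ± 0.31% and 1.40 ± 0.19% in the uninjured region to 24.1 ± 6.43% of the sum in the scar on day 3, 54.7 ± 11.8% on day 7, 19.5 ± 5.64% on day 14, 22.4 ± 3.77% on day 21 and 18.8 ± 6.35% on day 42. It was higher in 20 of 20 mice by 26.6 ± 15.3 points (permutation p = 1e-05, adjusted p = 1.5e-05), and on day 7 it was the largest share. On day 3 a regional difference in the level of Ckb itself was not called as deposited (it was under 2 other scalings, above), while those of Ckm and Ckmt2 were called.

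Ckmt2 kept the largest share in the other groups. In the uninjured region it was between 65.1 ± 1.21% and 71.7 ± 1.15%. In the scar it was 59.1 ± 4.39% on day 3 and 37.0 ± 9.08% on day 7, which was below the uninjured share in 4 of 4 mice on both days. On days 14, 21 and 42 it was 67.0 ± 2.68%, 66.8 ± 5.54% and 69.8 ± 3.53%, and 6 of those 12 mice were higher and 6 lower. The pooled difference of -8.15 ± 15.2 points (permutation p = 0.0223, adjusted p = 0.0223) thus joins days of unlike direction.

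**Figure D4:**
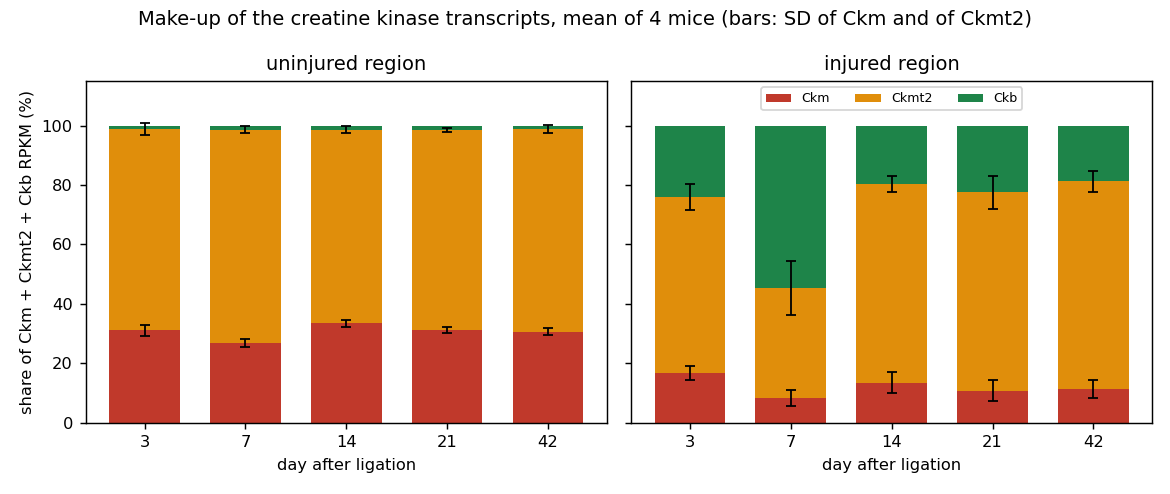
Shares of Ckm, Ckmt2 and Ckb in the summed creatine kinase RPKM (%), mean of 4 mice per day, in the uninjured and injured regions. Error bars, drawn at the top of the Ckm and Ckmt2 segments, are the SD of those shares. The mean Ckb share is at most 1.40% of the uninjured sum and reaches 54.7% in the scar on day 7.

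Set against the geometric mean of the 9 cardiomyocyte markers in the same library, the 5 genes lay on both sides of 0. The log2 ratio to the markers, scar minus uninjured region, was -2.49 ± 0.55 (SD over 20 mice) for Ckm, -1.31 ± 0.38 for Ckmt2 and -0.87 ± 0.47 for Mb, below 0 in 20 of 20 mice for each. It was 3.27 ± 0.74 for Ckb and 2.05 ± 0.76 for Slc6a8, above 0 in 20 of 20 (sign-flip permutation p = 1e-05 and adjusted p = 1e-05 for each of the 5). By day, Ckm stood at -1.71 ± 0.21, -2.76 ± 0.22, -2.46 ± 0.33, -2.82 ± 0.65 and -2.69 ± 0.40. Mb, by contrast, moved toward the markers, from -1.64 ± 0.22 on day 3 to -1.01 ± 0.18 on day 7 and -0.57 ± 0.20, -0.65 ± 0.21 and -0.48 ± 0.12 on days 14, 21 and 42. Ckmt2 had its lowest value on day 7, -1.98 ± 0.08, and lay between -1.26 ± 0.16 and -1.02 ± 0.18 on the other days. The difference of Slc6a8 to the markers was 2.78 ± 0.37 on day 3 and 1.13 ± 0.18 on day 42. The markers themselves were not alike. On the scale of log2(RPKM + 1), the regional differences of Myh6, Tnni3 and Pln were at their highest -2.73, -2.97 and -2.66. These 3 markers thus lay below Mb on day 42 (-2.59), while the median of the 9 markers that day was -1.90.

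**Figure D5:**
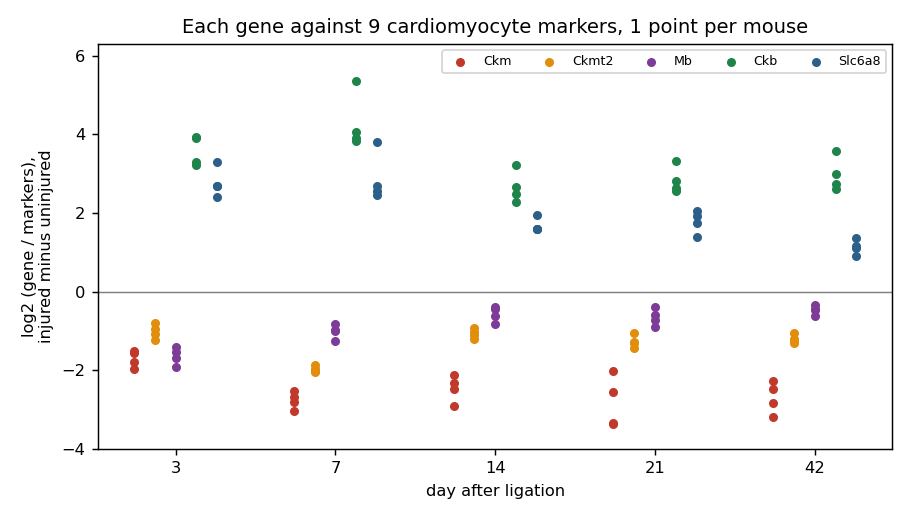
Log2 ratio of each gene to the geometric mean of 9 cardiomyocyte markers, injured minus uninjured, 1 point per mouse. All points of Ckm, Ckmt2 and Mb lie below 0 and all of Ckb and Slc6a8 above it, and the Mb points move toward 0 from a mean of -1.64 on day 3 to -0.48 on day 42.

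The genes around the kinases fell into groups that were given by function. Of the creatine synthesis genes, Gatm, which encodes the first enzyme of the pathway, was higher in the scar on all 5 days, at 4.93 against 2.77 RPKM on day 3 and 4.52 against 1.62 on day 42 (log2 differences 0.66 ± 0.11 and 1.08 ± 0.11, limma adjusted p = 7.84e-06 and 8.50e-09). Gamt, the second enzyme, was called as deposited on day 7 alone (0.52 ± 0.13, limma adjusted p = 0.000956). Scaled to the recovered reads Gamt was called higher on days 3, 7, 14 and 42 (limma adjusted p at most 0.0165), and under quantile normalization it was higher on day 7 and lower on day 21 (-0.35, adjusted p = 0.0154). All 6 genes tested for the passage of ATP, ADP and phosphate through the mitochondrial membranes were lower on each day. Of all genes tested, 39.6% were called lower on day 3 and 38.7% to 41% on later days. The list's median log2 difference was -2.06 on day 3 and -1.75 on day 42, where the median of all genes was 0.06 and 0.03. The largest day 3 differences were those of Slc25a4, the muscle ATP/ADP carrier (-3.85 ± 0.15), Slc25a3, the phosphate carrier (-2.65 ± 0.11), Vdac1 (-2.32 ± 0.11) and Vdac3 (-1.81 ± 0.09), the last 2 outer membrane channels. The exception under another scaling was Slc25a5 on day 3, which went from -0.67 to 0.07 under quantile normalization (limma adjusted p = 0.506). Its day 3 call was also lost when scaled to the recovered reads (-0.10, limma adjusted p = 0.337).

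ATP users beside which muscle creatine kinase works, with M line and thick filament proteins, were lower for 9 of 9 genes tested on each day. The share of all genes called lower was 39.6% on day 3 and 38.7% to 41% on later days. The list's medians were -2.87 on day 3 and -1.63 on day 42, where the median of all genes was 0.06 and 0.03. Atp2a2, the calcium pump of the sarcoplasmic reticulum, led on day 3 at 165 against 2814 RPKM (log2 difference -4.14 ± 0.19). Kcnj11, the pore of the ATP-sensitive potassium channel, was at -3.78 ± 0.16 and Myom2, an M line protein, at -3.03 ± 0.19. Atp1b1 was the exception to direction. Under quantile normalization it went from -0.37 to 0.34 on day 3 (limma adjusted p = 0.0431), from -0.61 to 0.11 on day 14 (0.516) and from -0.77 to 0.0026 on day 21 (0.987), and its day 42 call was lost (0.836). Scaled to the recovered reads it was at 0.20 on day 3 and was not called on days 3, 14, 21 or 42 (limma adjusted p = 0.173, 0.441, 0.109 and 0.513). The 7 other phosphotransfer kinases tested were mixed, 2 higher and 4 lower on day 3 and 1 higher and 5 lower on each later day. Taken in either direction, the calls lie near the share called of all genes tested, 83.7% on day 3 and 79.2% to 84% on later days. By direction, 44.1% of all genes were higher and 39.6% lower on day 3. On later days 40.5% to 43.6% were higher and 38.7% to 41% lower. Ak1, the cytosolic adenylate kinase of muscle, was at -2.84 ± 0.11 on day 3, Ak3, of the mitochondrial matrix, at -1.13 ± 0.07 and Ak4 at -0.94 ± 0.13. Nme1, a nucleoside diphosphate kinase, was higher on day 3 (1.12 ± 0.12). It was not called on any later day (0.02 on day 7, -0.22 on day 14), so the 1 higher gene of those days was another. Ak6, lower on day 3 as deposited (-0.39), was at 0.07 when scaled to the recovered reads. On that scale the day 3 counts of these kinases were 3 higher and 3 lower, where 73.3% of the calls among all genes were higher.

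Enzymes of AMP handling were mixed. Of 5 tested, 3 were higher and 2 lower on day 3, and 2 were higher and 3 lower on each later day, where all genes tested were 44.1% higher and 39.6% lower on day 3. Their median log2 difference on day 3 was 0.26, against 0.06 for all genes. Ampd3, an AMP deaminase, was the one that turned, from 0.26 ± 0.10 on day 3 to -0.80 ± 0.10 on day 7. Adssl1, the muscle adenylosuccinate synthase, was lower on day 3 (-1.57 ± 0.12) while Adss, the form of other tissues, was higher (1.33 ± 0.07). Ampd2 was higher (1.51 ± 0.07) and Adsl lower (-1.15 ± 0.07). Of 6 AMPK subunits, 2 were higher and 3 lower on day 3, 5 called of 6 where 83.7% of all genes were called, with a median of -0.44. Among them Prkaa2, the catalytic subunit abundant in muscle, was at -2.17 ± 0.14, Prkag1 at -1.33 ± 0.07, Prkab1 at -0.80 ± 0.09 and Prkaa1, the other catalytic subunit, at 0.35 ± 0.07. Scaled to the recovered reads, 3 were higher and 3 lower on each day, where 68.1% to 75.2% of the calls among all genes were higher. Beside myoglobin, the table held 1 of 2 other globins sought, cytoglobin. Cygb was at 20.4 against 23.7 RPKM on day 3 (-0.21 ± 0.09, limma adjusted p = 0.0412) and at 128 against 36.3 RPKM on day 42 (1.80 ± 0.09, adjusted p = 2.97e-13), and its day 3 difference turned to 0.34 when scaled to the recovered reads and to 0.12 under quantile normalization. Nos2 and Nos3, synthases of the nitric oxide that myoglobin scavenges, were both higher in the scar on day 3 (0.82 ± 0.11 and 0.76 ± 0.09) and both lower on days 7 to 42. For Nos2 the calls on days 14 and 21 were lost when scaled to the recovered reads (limma adjusted p = 0.0691 and 0.111).

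The genes most like each member over the 40 libraries were named by Pearson's r of log2(RPKM + 1), as a description. These libraries share the split between regions, which any gene of muscle follows. Ckm was most like Slc25a4 (0.995), Cox7a1 (0.994) and Smyd1 (0.994), Ckmt2 most like Fabp3, Pgam2 and Tnni3 (0.997, 0.997 and 0.996), and Mb most like Pm20d2, Chpt1 and Mylk3 (0.994, 0.993 and 0.992). Ckb and Slc6a8 had looser company, with Sardh (0.868), Crip1 (0.866) and Mtch1 (0.864) for Ckb and Plekhm2 (0.955), Tmem201 (0.946) and Neurl2 (0.945) for Slc6a8. With the mean of each day removed, over the 20 scars Ckm was most like Srl (0.953), Ckmt2 most like Perm1 (0.981), Mb most like Cox8b (0.977), Ckb most like Arsi (0.835) and Slc6a8 most like Slc20a2 (0.895). Over the 20 uninjured libraries the leading genes were Ndufv3 for Ckm (0.946), Acad11 for Ckmt2 (0.966), Cox8b again for Mb (0.961), Ankrd23 for Ckb (0.929) and Nol9 for Slc6a8 (0.765).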

How the data were processed

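The 5 genes and all gene lists were chosen with earlier results of these data known. The authors deposited 1 table of RPKM values for 11450 genes in 40 libraries. Per the submitters' processing notes, STAR, edgeR and the mm10 build were used, with no versions or roles given. Their annotation, strand setting and scaling were not given in the sources used here. Groups came from the sample titles, every library matched 1 column, and 0 columns were left unmapped. No libraries were identical (0 pairs; highest Spearman correlation between libraries 0.995).

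Genes at 1 RPKM or more in at least 4 libraries were kept (11390), and log2(RPKM + 1) was fitted with limma 3.58.1 in R 4.3.3 (statmod 1.5.0; trended, robust variance). Regions were compared within mice, each mouse being a fixed block (15 residual df), by day and by an F test of the change over days. Days were compared within each region. Benjamini-Hochberg adjustment ran over all genes tested, and calls needed an adjusted p under 0.05. The libraries of a mouse deviated together from their group means in all 20 mice (correlations 0.148 to 0.540), and come from the same heart per the titles. Ratios and shares were tested by permutation in Python 3.11.15 (numpy 2.4.6, pandas 2.3.3).

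RPKM steps gave whole reads for 11448 genes (99.98% of values, within a tolerance of 0.01), used for depth, rescaling and limma-voom; a gene had a median of 577 reads in a library. The fits were checked on simulated data. Always named were the 5 genes, and per list the at most 4 called genes with the largest day 3 difference; per gene also the 3 most correlated genes. One gene that the rule names is not reported here. Genes that another scaling turned were named after their values were seen. Positions are from GENCODE M21, promoters from RefSeq (GRCm38.p6), in which 3 creatine kinase genes and Mb of the 5 genes were found; Slc6a8 was not matched. Alternatives covered the pseudocount, filter, scaling, block, a covariate and each mouse left out; limma-voom was added after seeing the data. The p-values set differences against the spread between these mice.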

Additional observations from a re-analysis of the deposited data

Results flagged for a closer look

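Of 50 groups of 4 libraries (5 genes, 2 regions and 5 days), 2 held a value apart from the other 3, where chance gives about 1 in 20. Ckmt2 in the day 7 scar of mouse A10 was at 18.7 RPKM, the other 3 scars being at 32.9 to 34.2. Ckb in the day 42 scar of mouse B1 was at 33.9 RPKM, the other 3 being at 43.6 to 44.8. The regional difference changed over the days by the limma F test for 4 of the 5 genes, with adjusted p = 0.0357 for Ckm, 3.79e-06 for Ckmt2, 0.00199 for Ckb and 6.81e-07 for Mb, beside 74.3% of all genes tested.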

How the results depend on the processing

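Every regional call of Ckm, Ckmt2 and Mb and every ratio and share averaged over the mice kept its direction and call under all alternatives run. With mice left out in turn, Ckb on day 3 ranged from -0.0529 to 0.115 (log2), and its scar change from day 7 to 14 from -0.190 to 0.0465, neither called in any of these fits. The uninjured Mb change from day 7 to 14 was -0.10 under quantile normalization. Without the replicate block, 8013 rather than 8460 genes and 3 rather than 4 of the 5 changed in regional difference over the days (8752 genes with the mouse as a random effect). In the scar from day 14 to 21, 5 genes were called when rescaled to recovered reads and 6 in the random-effect fit of 40 libraries, rather than 0 (0 to 25 with mice left out). From day 21 to 42 in the scar, 1 of the 5 genes was called under quantile normalization and 1 in the random-effect fit, rather than 0 (0 to 1 with mice left out). In the uninjured region from day 3 to 7, 1 of the 5 was called under quantile normalization, read rescaling or the random effect, rather than 2 (1 to 2 with mice left out), and 2842 genes became 1705 to 3052 with mice left out (1705 without day 7 A7, 1731 without day 3 A8). From day 7 to 14 there, 1 of the 5 was called under quantile normalization or the same median and 0 with the random effect, rather than 2 (1 to 2 with mice left out), and 1486 genes became 2393 with Xist detection as a covariate and 613 to 1807 with mice left out (628 without day 7 A7, 616 without day 7 A12, 683 without day 14 A5 and 613 without day 14 A6). From day 14 to 21 it was 0 to 1 genes rather than 1. From day 21 to 42, quantile normalization left 0 of the 5 rather than 1 (0 to 1 with mice left out), and 2339 genes became 1530 to 3031 (1530 without B9). Over all days there, 1 of the 5 was called under quantile normalization and 2 under read rescaling, the same median or the random effect, rather than 4 (2 to 4 with mice left out). The cause of these changes was not tested. Of 1540 single-gene values under alternatives, 56 lost a call, 6 gained one and 4 turned. Leaving Ckmt1 out could not be run, because it was not analysed here.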
